A study of Mus musculus with 354 samples.

Results

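Psat1, Asns and the genes named with them make up a set of 10 genes bound or induced by the transcription factor ATF4, with ATF4's own gene among them: Psat1, Phgdh, Asns, Trib3, Chac1, Ddit3, Atf4, Sesn2, Slc7a11 and Mthfd2. They were taken by symbol, through array probe sets annotated to exactly 1 of these symbols. The genes were chosen by their tolvaptan minus Control differences, Control strain means and share of arrays above the array median in these data, so those values are given below as a description, with no p-value for the 10 genes. Of the 10, 8 had a probe set of their own and all 8 passed the filter on dim genes, which kept 14125 of 16670 genes. Mthfd2 shared its 2 probe sets with Gsn, and Phgdh was not matched to a named probe set; neither was analysed here.

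ATF4 is the main effector of the integrated stress response. Kinases that sense amino acid shortage, unfolded protein in the endoplasmic reticulum, haem shortage or double-stranded RNA phosphorylate the initiation factor eIF2alpha, which slows translation in general while the Atf4 message is translated more. ATF4 protein then binds composite C/EBP-ATF elements and raises genes for amino acid synthesis and uptake, tRNA charging and, under lasting stress, CHOP (Ddit3) and its targets. In liver the same genes respond to feeding, fasting and dietary protein.

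The promoters, from 250 bases before to 50 after the annotated start in RefSeq's table for GRCm38.p6, were searched on both strands for TGATGNAA, the core of the C/EBP-ATF element, and for TGNNGCAAT, a relaxed form chosen after the promoter sequences had been seen. Promoters of all 10 genes were listed. TGATGNAA was found in 4 of the 10 (Asns, Trib3, Chac1, Slc7a11) and in 3.97% of all 32851 promoters. TGNNGCAAT was found in 3 of the 10 (Psat1, Trib3, Chac1) and in 2.12% of all. Psat1 had 2 promoters listed, and its downstream one (chr19:15924573-15924872, minus strand) held no match to either form. A gene was counted if any of its promoters matched, while the percentages are per promoter. The promoters of the enzyme pair and of 2 stress genes are shown 5′ to 3′ on the gene's strand, with the matches in capitals, because these genes gave the largest differences or the most varied levels below. They are the upstream of both Psat1 promoters in the table (chr19:15925010-15925309, minus strand), Asns (chr6:7693160-7693459, minus strand), Trib3 (chr2:152344011-152344310, minus strand) and Chac1 (chr2:119350992-119351291, plus strand).
Psat1: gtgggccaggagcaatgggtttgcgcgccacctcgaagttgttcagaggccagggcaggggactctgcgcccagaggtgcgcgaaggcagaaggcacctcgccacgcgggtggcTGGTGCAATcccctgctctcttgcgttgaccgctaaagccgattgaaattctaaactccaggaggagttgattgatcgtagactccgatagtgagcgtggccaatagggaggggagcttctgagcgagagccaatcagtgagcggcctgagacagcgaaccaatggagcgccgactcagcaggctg
Asns: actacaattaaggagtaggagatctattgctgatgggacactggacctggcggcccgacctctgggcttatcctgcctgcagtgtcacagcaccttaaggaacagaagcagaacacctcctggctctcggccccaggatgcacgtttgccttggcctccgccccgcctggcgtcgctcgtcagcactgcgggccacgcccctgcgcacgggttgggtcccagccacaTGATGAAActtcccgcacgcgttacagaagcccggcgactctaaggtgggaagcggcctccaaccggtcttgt
Trib3: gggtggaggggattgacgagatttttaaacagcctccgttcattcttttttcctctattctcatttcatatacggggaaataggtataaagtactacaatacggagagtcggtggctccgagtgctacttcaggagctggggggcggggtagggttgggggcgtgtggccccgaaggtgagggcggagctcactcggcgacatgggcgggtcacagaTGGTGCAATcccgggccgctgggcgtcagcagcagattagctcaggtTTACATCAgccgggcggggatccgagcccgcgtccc
Chac1: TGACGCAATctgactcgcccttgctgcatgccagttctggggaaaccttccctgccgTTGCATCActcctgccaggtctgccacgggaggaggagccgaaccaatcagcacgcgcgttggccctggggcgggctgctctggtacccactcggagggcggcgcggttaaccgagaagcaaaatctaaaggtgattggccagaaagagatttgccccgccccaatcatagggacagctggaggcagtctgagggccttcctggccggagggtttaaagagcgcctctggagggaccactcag
Counted from the start site, the Psat1 match TGGTGCAAT began at base -136 and the Asns match TGATGAAA at base -23. Trib3 carried the same 9 letters as Psat1 at base -33, and TTACATCA, a match on the opposite strand, from base 14 after the start. Chac1 carried TGACGCAAT at base -250 and TTGCATCA on the opposite strand at base -193. A match says only that these letters stand in the window.

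Liver RNA came from 354 male mice of 45 Collaborative Cross strains, inbred lines derived from a shared set of founders, with 1 Affymetrix HT_MG-430 PM array, which reads a single label, for each mouse. There were 179 Control animals, given vehicle, and 175 given tolvaptan, an antagonist of vasopressin at its V2 receptor, and the livers were taken 24 h after treatment. Dosing of both groups began at 8 to 10 weeks of age after some 7 days of acclimation, and all mice went without food for some 18 h before necropsy; diced tissue of the median lobe was used, so a value is an average over the cells of that lobe. A strain had 4 animals in a treatment group in 85 cases, 3 in 4 cases and 2 in 1 case. Values are on the log2 scale, and the median over probe sets lay between 2.81 and 3.02 on every array. All 10 hepatocyte markers checked, albumin and apolipoprotein A-I genes among them, lay above that median on every array.

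Over the 500 probe sets that separate strains best, 34 arrays of 19 strains resembled the median of their labelled strain's remaining arrays poorly, with correlations up to 0.33, while those of the other 320 were 0.65 or more. They were 27 Control and 7 tolvaptan arrays, 22 of them in the second of 6 scanning dates, and are called off their strain below. Only some values of the 19 strains that hold such arrays are marked below. The first scanning date, scan 1, held 1 animal of each strain and treatment.

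Psat1, phosphoserine aminotransferase of the serine synthesis pathway, was a dim gene in these fasted livers. Its level was 2.52 ± 0.75 (SD, n = 179) in Control and 2.82 ± 1.12 (SD, n = 175) in tolvaptan animals, an SD that includes the spread between strains. The lowest, median and highest Control values were 1.40, 2.28 and 5.75, and the tolvaptan values were 1.62, 2.37 and 7.86. The medians were thus close and the tolvaptan group reached further upward. Psat1 lay above the array median in 39 Control animals (21.8%) and in 55 tolvaptan animals (31.4%). A level of at least 4 was reached by 9 Control animals from 9 strains and by 22 tolvaptan animals from 14 strains. At 5 or above there were 3 Control animals from 3 strains and 11 tolvaptan animals from 8 strains. In this bulk tissue a change in the number of cells that express a gene and a change in RNA per cell cannot be told apart.

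Averaged over the 45 strains, tolvaptan minus Control for Psat1 was 0.32 ± 0.08 (SE) on the log2 scale, a fold of 1.24, and was positive in 32 strains. Of the 8 genes it was the one called in limma's test of the averaged difference at adjusted p under 0.05, where 0.496% of all genes were called (0.326% higher and 0.17% lower). That contrast chose the genes, so nothing is read from this count. With arrays off their strain left out, it was 0.27 ± 0.08 and was not called. Restricted to the 26 strains free of such arrays it was 0.40 ± 0.09 and was called.

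Asns, the asparagine synthetase gene, had a difference of 0.24 ± 0.10, positive in 28 strains and not called. Its levels were 5.05 ± 1.43 (SD, n = 179) in Control and 5.30 ± 1.55 (SD, n = 175) in tolvaptan animals, with ranges of 2.84 to 9.37 and 2.65 to 9.80 that overlapped almost wholly. Over those 26 strains the difference was 0.40 ± 0.12, again not called. Both enzymes had a difference close to 0 in scan 1, the scanning date that holds every strain. There Psat1 differed by 0.0067 ± 0.21 and Asns by -0.06 ± 0.21 over 45 strains. In scans 2, 3, 4 and 5 the Psat1 difference was 0.23 ± 0.18, 0.47 ± 0.15, 0.60 ± 0.23 and 0.54 ± 0.38, over 16, 16, 8 and 4 strains. The Asns differences in those scans were 0.15 ± 0.21, 0.38 ± 0.15, 0.18 ± 0.25 and 1.17 ± 0.55. The later scans hold different strains, so scan and strain cannot be told apart there, and the part of the scanning date in the averaged value was not tested.

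**Figure D1:**
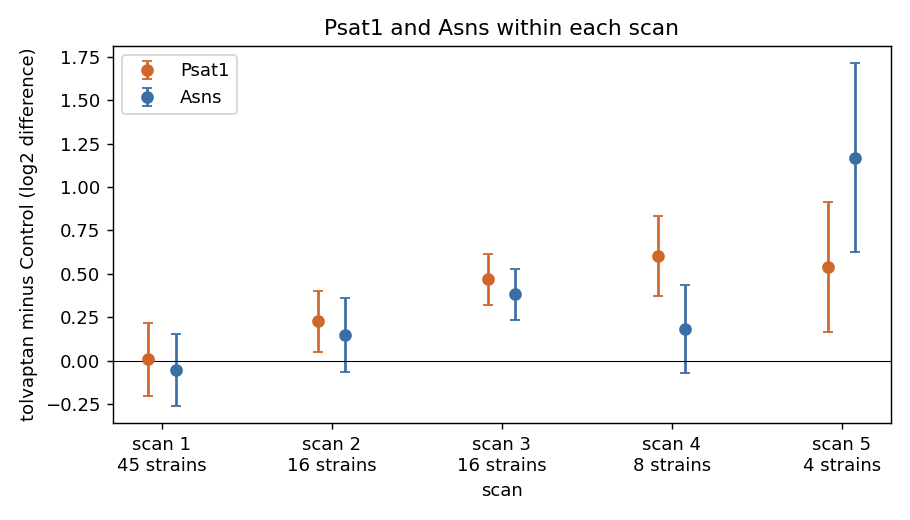
Tolvaptan minus Control of Psat1 (orange) and Asns (blue) within each scanning date, as log2 difference with SE bars; the number of strains with both treatments stands under each scan, and scan 6 held too few such strains for a value. Psat1 was at 0.0067 in scan 1 and between 0.23 and 0.60 in the later scans.

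Atf4 itself was bright in every animal and differed little. Its level was 9.35 ± 0.26 (SD, n = 179) in Control and 9.39 ± 0.37 (SD, n = 175) in tolvaptan animals, a difference of 0.04 ± 0.03, positive in 29 strains. Its protein is controlled largely through translation, which these arrays do not measure. Ddit3, which encodes the transcription factor CHOP, stood at 5.21 ± 0.48 and 5.15 ± 0.60, a difference of -0.06 ± 0.05. Trib3, a pseudokinase induced by ATF4 and CHOP, stood at 6.47 ± 0.77 and 6.49 ± 0.78, and Chac1, a glutathione-degrading enzyme, at 6.19 ± 0.75 and 6.20 ± 0.94. Both of these had an averaged difference of 0.02, with an SE of 0.07 for Trib3 and 0.09 for Chac1. Sesn2, a leucine sensor that restrains mTORC1, differed by 0.01 ± 0.04 and Slc7a11, the cystine transporter subunit xCT, by -0.03 ± 0.02. The second probe set of Sesn2 differed by 0.0036 before strain and scan were taken into account, and that of Slc7a11 was below the array median on every array. Over the 8 genes the median difference was 0.02 and 6 were positive, against a median of 0.00027 and 50.3% positive over all genes tested.

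**Figure D2:**
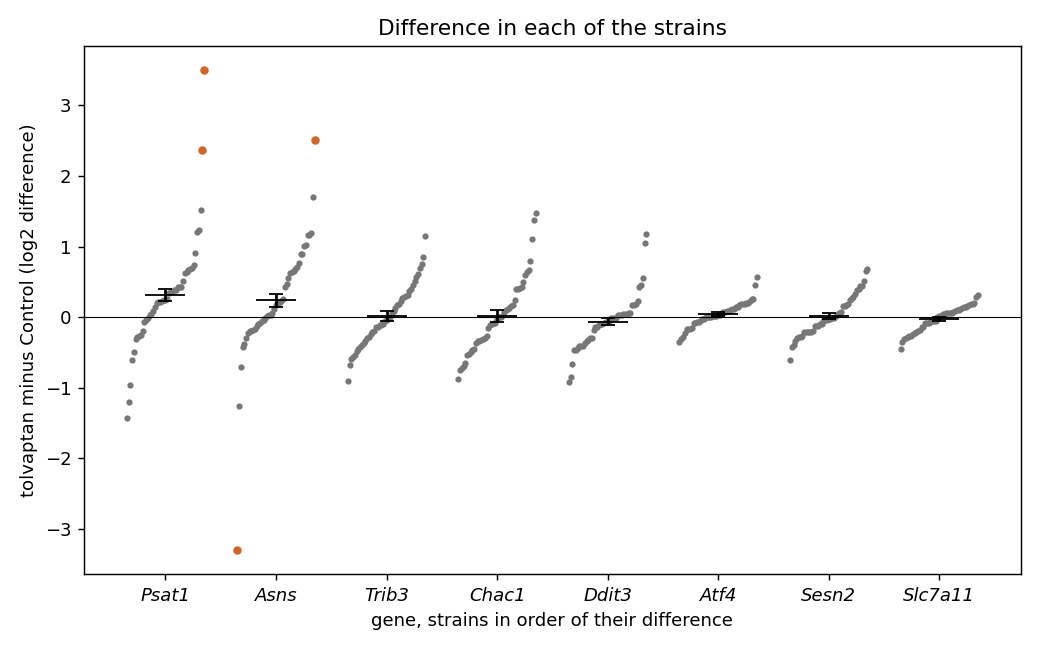
Tolvaptan minus Control in each of the 45 strains for the 8 genes measured, as log2 difference, with strains in rising order within a gene. Orange points were called within the strain, and the black bar is the average over strains with its SE; Psat1 and Asns reached beyond 2 in single strains while Atf4 stayed between -0.35 and 0.56.

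Within single strains the differences were much larger than the average, and they ran in both directions. These contrasts use 1 residual spread per gene for every strain, so a strain with more variable animals has the same SE as the others. The SD of a gene's strain differences can be set beside the SE in the strain of its highest difference. They were close for Trib3 (0.44 and 0.46), Chac1 (0.54 and 0.57), Atf4 (0.18 and 0.20), Sesn2 (0.29 and 0.34) and Slc7a11 (0.18 and 0.16). The Sesn2 SE is that of AU8016, which had only 2 tolvaptan animals. In AU8005, the strain of its lowest difference, the Sesn2 SE was 0.28. The SD was above the SE for Ddit3 (0.40 and 0.33), Psat1 (0.82 and 0.56) and Asns (0.85 and 0.65). In limma's within-strain contrasts, 0.281% of all gene and strain pairs were called, 0.124% higher and 0.157% lower. Psat1 was called higher in OR5119 and AU8033, Asns was called higher in OR5119 and lower in OR13421, and the other 6 genes were called in no strain. The differences within strains also chose the genes, so nothing is read from these counts, and the calls named below only describe where a value stood. Limma's F test of whether the difference is the same in every strain called 3 genes (0.0212%), none of the 8 among them.

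OR5119 had the highest difference of both enzymes. The 4 Control animals of OR5119 had Psat1 levels of 2.56, 2.17, 2.77 and 1.83, the last from an array off its strain, and the tolvaptan animals had 5.99, 2.39, 6.86 and 7.86. Tolvaptan animal 366, at 2.39, lay inside the Control range and the other 3 lay above every Control animal. The difference was 3.50 ± 0.56, or 3.29 without the array off its strain. Leaving out each animal in turn gave 2.79 to 4.60, the highest without animal 366. Asns in the same animals was 6.66, 4.22, 6.59 and 3.56 in Control and 6.53, 5.07, 8.98 and 9.80 in tolvaptan animals. Only the last 2 animals stood above the Control range. The Asns difference was 2.51 ± 0.65 and ran from 1.83 to 3.30 as each animal was left out. Psat1 in OR5119 was still called without any 1 animal and without the array off its strain, while Asns was not called without that array (1.84), without Control animal 362 (2.24), without tolvaptan animal 367 (2.01) and without tolvaptan animal 368 (1.84). Ddit3 was high in those same 2 animals, at 7.43 and 7.55, against 5.29 and 5.08 in the other 2 and 4.92 to 5.96 in Control. Animal 368 alone also had Chac1 at 9.56 and Atf4 at 10.89, against Control ranges of 4.65 to 7.58 and 9.07 to 9.67. Without animal 368 the OR5119 difference of Chac1 went from 0.67 to -0.36 and that of Atf4 from 0.18 to -0.27.

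In OR3393, 4 genes differed by at least 1 on the log2 scale, and 1 animal carried them. The Psat1 levels were 2.17, 1.94, 2.06 and 1.90 in Control and 3.01, 1.97, 6.15 and 3.04 in tolvaptan animals. Chac1 was 6.41, 5.22, 5.06 and 5.58 in Control and 5.55, 5.69, 10.09 and 6.46 in tolvaptan animals. Ddit3 was 5.58, 4.83, 4.63 and 5.53 in Control and 5.60, 4.94, 9.28 and 5.45 in tolvaptan animals. The third tolvaptan animal, number 477, stood apart in each, and its Asns (9.11), Trib3 (7.90), Atf4 (11.06) and Sesn2 (8.05) also lay above every Control animal of the strain. Its Slc7a11, at 2.85, did not. Without animal 477 the strain's differences went from 1.52 to 0.65 for Psat1, 1.17 to 0.54 for Asns, 1.38 to 0.35 for Chac1, 1.17 to 0.19 for Ddit3 and 0.46 to 0.02 for Atf4.

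Levels of other cell types moved with that animal. The mean log2 level over 9 of 9 sinusoidal endothelial markers was 5.49 in animal 477, against 6.60 to 6.86 in the other 3 tolvaptan and 6.53 to 6.82 in the Control animals. Over 8 of 8 Kupffer cell and macrophage markers it was 4.70, against 5.89 to 6.25 and 5.64 to 6.15. Its hepatocyte marker level was 13.07, the highest of the 8 animals, the others lying between 12.64 and 12.83. In OR5119 the endothelial level was 6.55 and 5.92 in animals 367 and 368, and 6.82 to 7.00 in the other 6 animals. Among the endothelial markers Lyve1 alone was positive in the strain differences, at 0.60 in OR3393 and 0.66 in OR5119. The stellate cell and fibroblast level (7 of 8 markers) was 4.64 and 4.80 in 367 and 368 and 5.18 to 5.67 in the other 6. The bile duct level of animal 477 (5 of 6 markers) was 3.44, against 2.37 to 2.85 in the other 7 animals of OR3393. Of these markers only Sox9 was positive in the OR3393 difference, at 1.12, and the others lay between -0.47 and -0.24. The RMA values hold no zero, so no marker was at 0. The part of these shifts in the results was not tested.

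AU8033 and AU8049 were picked out after their values were seen. In AU8033 the Psat1 levels were 3.22, 2.98, 1.96 and 2.24 in Control and 6.30, 4.63, 5.76 and 3.17 in tolvaptan animals; the first 2 Control arrays and the tolvaptan array at 4.63 were off their strain. Of the tolvaptan values only 3.17 lay within the Control range, and the difference was 2.37 ± 0.55. It was 2.94 and still called without the 3 arrays off their strain. With single animals left out it was called without tolvaptan animal 86 (2.47) or 88 (3.003) and not called without any other, at 1.91 to 2.58. The animals at 6.30 and 5.76, 85 and 87, had endothelial marker levels of 6.68 and 6.28, against 6.90 to 7.05 in the other 6 animals, and the part of this was not tested. In AU8049 animals 345 and 346 had Chac1 at 9.66 and 9.53 and Atf4 at 10.76 and 10.55. The Control animals of AU8049 lay between 5.83 and 6.31 for Chac1 and between 9.29 and 9.51 for Atf4, and tolvaptan animal 347 had a Chac1 level of 4.59, below all of them. The strain difference was 1.48 ± 0.57 for Chac1 and 0.56 ± 0.20 for Atf4, each the highest of the 45 strains for its gene. Without animal 345 these were 0.75 and 0.29, and without animal 347 they were 2.44 and 0.87. Trib3 was not high with them, at 5.77 and 6.02 in the same animals against 6.58 to 7.18 in Control. Marker levels moved in the same 2 animals, 345 and 346. Their endothelial level was 6.33 and 6.37 against 6.92 to 7.03 in Control, their bile duct level (5 of 6 markers) 3.70 and 3.48 against 2.54 to 2.79, and their hepatocyte level 12.83 and 12.85 against 12.46 to 12.58. Some levels also lay outside the Control range in the other tolvaptan animals, with endothelial 6.74 in animal 348 and hepatocyte 12.68 in animal 347. The Kupffer cell and macrophage level was 5.35 to 5.72 in all tolvaptan animals of AU8049, against 5.87 to 6.14 in Control. The part of these shifts was not tested.

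**Figure D3:**
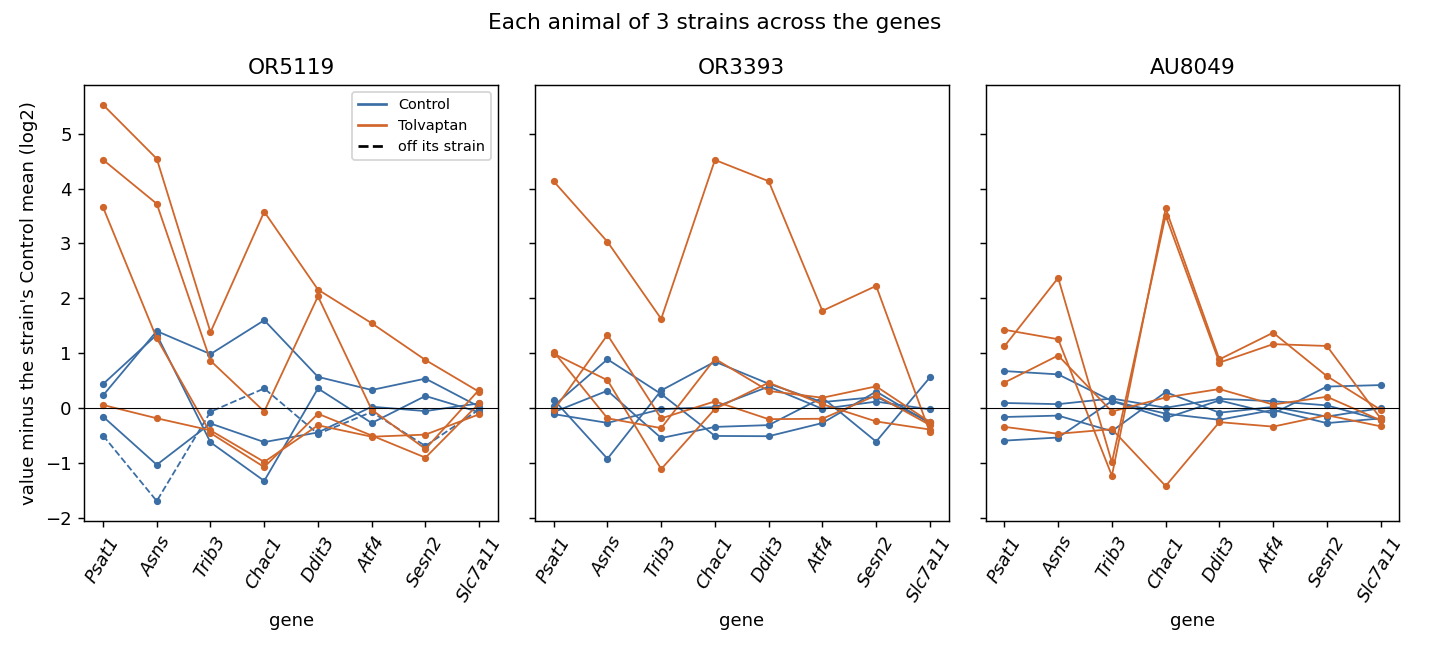
Each line is 1 animal of OR5119, OR3393 or AU8049 across the 8 genes, drawn as its log2 value minus the mean of the strain's Control animals (blue Control, orange tolvaptan, dashed for the array off its strain). Animals 367 and 368 of OR5119, 477 of OR3393 and 345 and 346 of AU8049 rise far above the Control band in several genes. Psat1 and Asns lead in OR5119 and Chac1 leads in AU8049. Animal 365 of OR5119 also rises above the band in Psat1 (5.99), and animal 347 of AU8049 lies below it in Chac1 (4.59).

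In OR13421 the enzymes differed the other way. Asns was 8.28, 7.53, 7.10 and 6.10 in Control animals, the first 2 from arrays off their strain, and 4.20, 3.92, 3.98 and 3.71 in tolvaptan animals. The groups did not overlap, and the difference was -3.30 ± 0.64, or -2.72 and no longer called without the arrays off their strain. Without Control animal 111 it was -2.96 and not called, and without any other animal it stayed called. Non-overlap in this direction was found in 1.5% of all gene and strain pairs, and in the other direction in 1.55%. Psat1 in OR13421 was 2.13 and 2.17 in the Control animals off their strain, 5.75 and 3.54 in the other 2 and 2.07 to 2.36 in the tolvaptan animals. Its difference was -1.20 with all arrays and -2.51 without those off their strain, then the lowest of all strains for Psat1. The endothelial marker level there was 7.51 to 7.80 in tolvaptan against 7.00 to 7.52 in Control animals, and its part was not tested. The lowest Psat1 difference with all arrays was in OR477, at -1.43 ± 0.59. Its Control levels were 3.98, from an array off its strain, 3.90, 3.83 and 4.86 and its tolvaptan levels 4.28, 1.94 and 1.94, so 1 tolvaptan animal lay within the Control range.

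The other genes had their extremes in other strains. Trib3 ran from -0.90 in IL16188 to 1.15 in AU8021, where 2 Control arrays were off their strain. Single animals weighed on both ends, with -0.42 in IL16188 without animal 148 and 0.51 in AU8021 without animal 52. Without the arrays off their strain the highest Trib3 difference was 1.10, in IL16750. Chac1 was lowest in OR773, at -0.88, or -0.49 without animal 454. Ddit3 was highest in OR3393 (1.17) and lowest in AU8027 (-0.91), where the Control animals lay at 5.56 to 6.57 and the tolvaptan animals at 5.004 to 5.64. Atf4 was lowest in OR13140, at -0.35 ± 0.20, with Control animals at 9.47 to 9.83 and tolvaptan animals at 9.25 to 9.32. Sesn2 ran from -0.61 in AU8005 to 0.69 in AU8016, and Slc7a11 from -0.45 in AU8018, or -0.30 without animal 214, to 0.31 in AU8043. AU8016 had only 2 tolvaptan animals, and IL16188, AU8005 and AU8018 held arrays off their strain. Without the arrays off their strain other strains came lowest: IL16188 for Ddit3 (-1.11), AU8033 for Atf4 (-0.35) and AU8018 for Sesn2 (-0.63).

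Animals in which several of the 8 genes were high together were few. Each animal was set against the mean of the Control animals of its strain, itself left out. At least 2 genes were 1 or more above that mean in 12 Control and 23 tolvaptan animals, and at least 3 genes in 1 Control and 9 tolvaptan animals. At least 4 genes were so in 4 tolvaptan animals and no Control animal. A tolvaptan animal is compared with up to 4 Control animals and a Control animal with up to 3, and no test was made of these counts. Tolvaptan minus Control differences chose the genes, so nothing is read from the excess of tolvaptan animals. Without the arrays off their strain the counts at 3 or more genes were 3 of 152 Control and 10 of 168 tolvaptan animals, and in strains with no such array 0 of 103 and 6 of 101. The 9 animals came from 7 strains, with 2 each in AU8049 and OR5119. The Control animal was 361 of OR5119, with Asns, Trib3 and Chac1 at 6.66, 8.12 and 7.58.

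Control levels differed between strains to a varying degree. Limma's F test of equal Control means called 6 of the 8, all but Chac1 and Slc7a11, and 74.9% of all genes. The shares are alike, and Control means were among the values that chose the genes, so nothing is read from the count. Strain accounted for 71.5% of the Control variance of Asns, against a median of 39.7% and a 95th percentile of 65.0% over all genes. For the others the share was 51.3% for Atf4, 47.2% for Psat1, 45.2% for Trib3, 44.5% for Ddit3, 36.3% for Sesn2, 29.1% for Chac1 and 23.2% for Slc7a11. Strain shares were computed with all Control arrays, the 27 off their strain included.

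Asns Control means ran from 3.12 in IL16912 and 3.25 in AU8048 to 7.35 in AU18042 and 7.80 in OR13067, a range of 4.68 or 25.6-fold. The 4 Control animals of IL16912 lay between 2.84 and 3.27 and those of OR13067 between 6.95 and 8.14, so the ends of the order did not overlap while neighbours in it did. In OR13067, 2 of the 4 arrays were off their strain, at 8.06 and 8.14, and the other 2 were at 8.03 and 6.95. In AU18042 the highest Control value, 9.37, came from an array off its strain. The mean was below 4 in 10 strains and above 6 in 12. The tolvaptan animals had a like order, and over the 45 strains their means and the Control means correlated at 0.78 (Spearman 0.79), and at 0.93 (Spearman 0.90) over the 26 strains free of arrays off their strain. These are different animals of a strain, which share scanning dates. Single strains left that order: OR13421 went from 7.25 in Control to 3.95 in tolvaptan animals, OR5119 from 5.26 to 7.59, and AU8021, with 2 Control arrays off their strain, from 5.09 to 6.78.

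**Figure D4:**
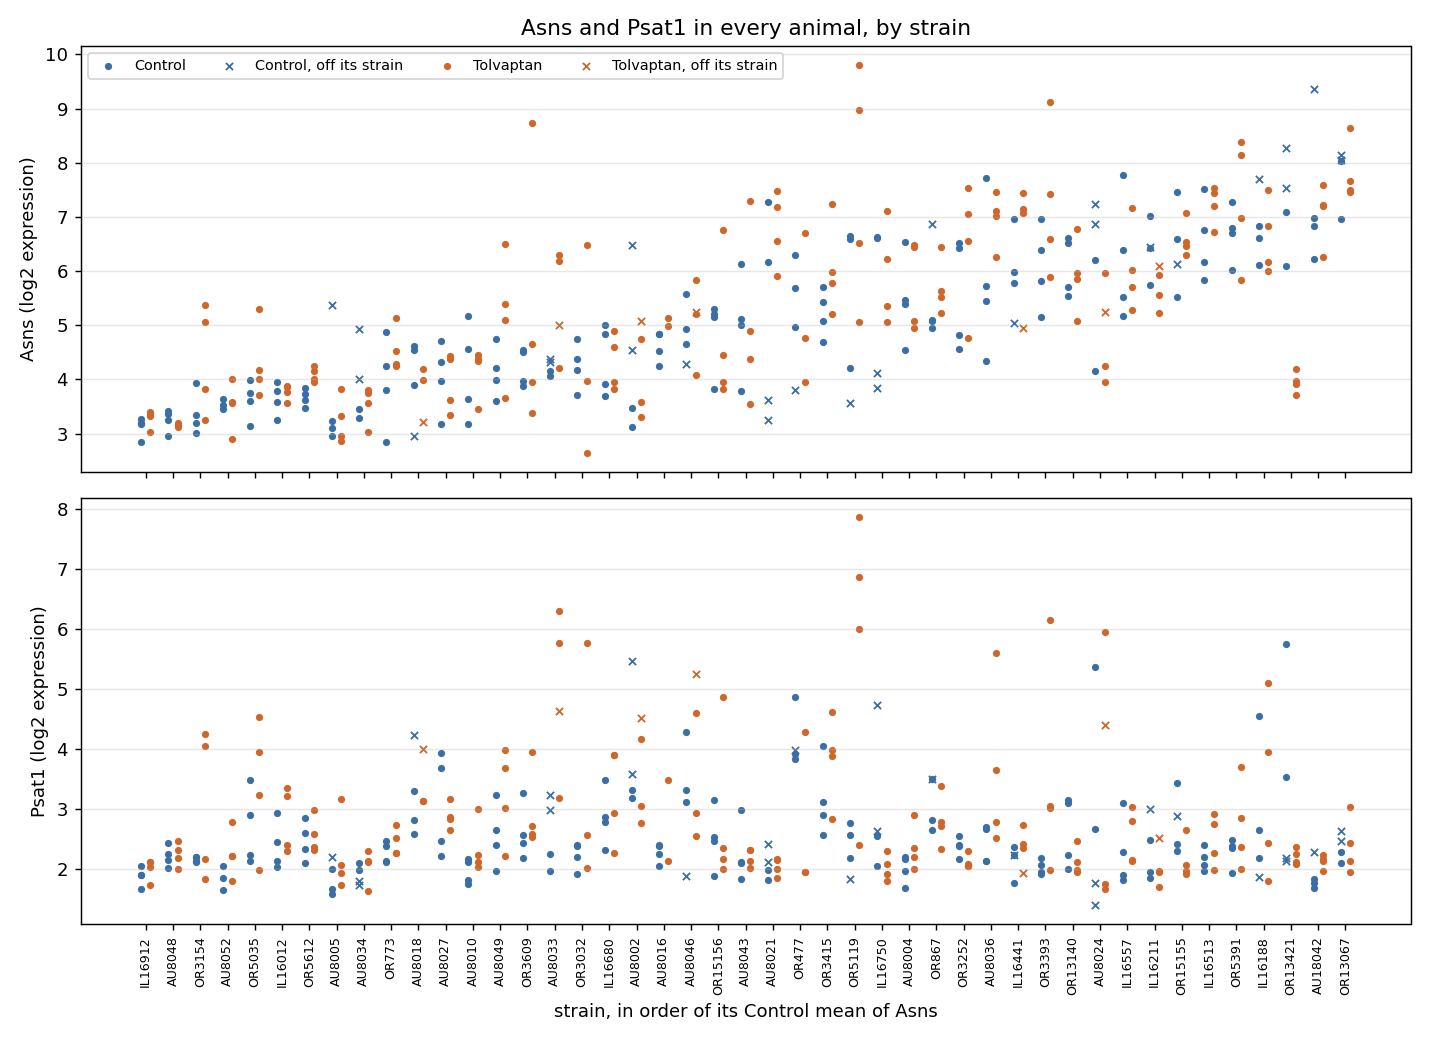
Log2 level of Asns (top) and Psat1 (bottom) in each of the 354 animals, with strains in order of their Control mean of Asns; blue is Control, orange tolvaptan, and crosses are arrays off their strain. Asns climbs across strains in both treatments, while Psat1 stays near 2 in most animals with single values above 5, 11 of them in tolvaptan and 3 in Control animals.

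For Psat1 the correlation was lower, and the difference from Asns was not tested. Its Control means ran from 1.84 in AU8052 and 1.86 in AU8005 to 3.88 in AU8002 and 4.14 in OR477, and correlated with the tolvaptan means at 0.29 (Spearman 0.44) over 45 strains and at 0.49 (Spearman 0.46) over the 26. The same correlation over 45 strains was 0.63 for Trib3, 0.62 for Atf4, 0.50 for Sesn2, 0.41 for Ddit3, 0.37 for Chac1 and -0.05 for Slc7a11. In AU8002 the Psat1 Control values of 3.58 and 5.46 came from arrays off their strain. Trib3 Control means were lowest in AU8021 (5.24) and OR3252 (5.80) and highest in OR13140 (7.48) and OR3415 (8.04). The lowest Trib3 value among the AU8021 Control animals, 3.37, came from an array off its strain. Chac1 was lowest in IL16750 (5.19) and OR3252 (5.40) and highest in OR5612 (7.00) and AU8016 (7.11). Ddit3 ran from AU8048 (4.57) and OR773 (4.62) to IL16680 (5.85) and AU8027 (6.11), the strain in which its tolvaptan difference was lowest. Atf4 kept within 0.65, from 9.04 in OR477 and AU8034 to 9.68 in IL16680 and OR5612. Sesn2 ran from AU8010 (5.72) and OR3393 (5.82) to IL16912 (6.75) and OR13067 (6.83), so the strain lowest in Asns stood near the top in Sesn2 and the strain highest in Asns was highest in Sesn2 too. Slc7a11 kept within 0.61, from IL16557 (2.83) and AU8027 (2.86) to OR3393 (3.30) and AU8052 (3.44).

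Between animals of the same strain and treatment the genes varied together only in part. With strain, treatment and scan removed, the 28 pairs correlated at -0.05 to 0.49 over 354 arrays, with a median of 0.17, and 5 pairs exceeded 0.3. These were Chac1 and Atf4 (0.49), Ddit3 and Atf4 (0.47), Psat1 and Asns (0.42), Trib3 and Sesn2 (0.35) and Psat1 and Ddit3 (0.35). For Psat1 and Asns the correlation was 0.14 (Spearman 0.20) over Control arrays and 0.62 (Spearman 0.59) over tolvaptan arrays, and 0.49 without the arrays off their strain. For Chac1 and Atf4 it was 0.24 (Spearman 0.24) and 0.61 (Spearman 0.43). Chac1 and Ddit3 correlated at -0.16 (Spearman -0.14) over Control and 0.28 (Spearman 0.05) over tolvaptan arrays. The median of the Pearson values over pairs was 0.10 in Control and 0.22 in tolvaptan arrays. Over tolvaptan arrays the Spearman value was below the Pearson value in most pairs, and the gap between treatments was narrower by Spearman. No closer likeness of the set under tolvaptan is therefore read from the Pearson medians. The arrays of a pair share an animal and a scan, and the difference between treatments was not tested.

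**Figure D5:**
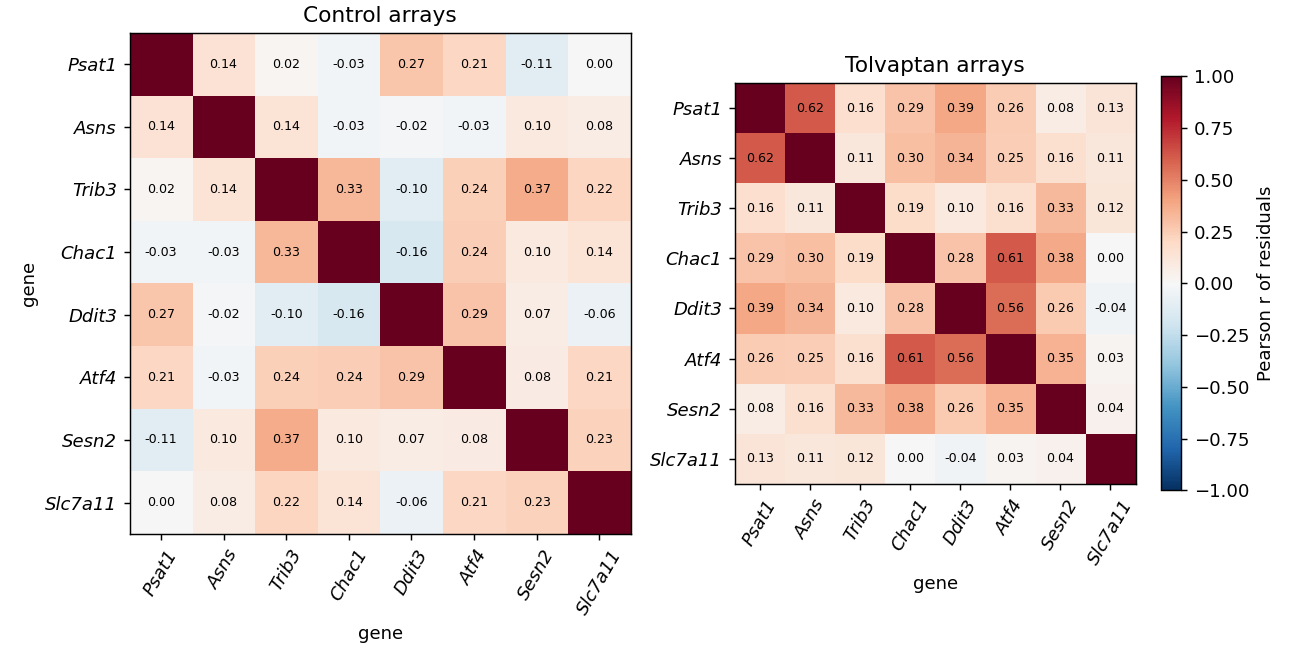
Pearson correlation between the genes after strain, treatment and scan were removed, over Control arrays (left) and tolvaptan arrays (right); colour and the printed value give r from -1 to 1. The cell of Psat1 and Asns holds 0.14 on the left and 0.62 on the right, and Slc7a11 stays below 0.24 with every other gene.

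Among genes outside the set, those most like the mean of the 8 were Gtpbp2, a GTP-binding protein of ribosome rescue (r = 0.56 over 354 arrays), Slc3a2, the heavy chain that partners Slc7a11 (0.52), Yrdc, a tRNA-modifying enzyme (0.52), Hilpda, a lipid droplet protein (0.51), and Ube2j2, a ubiquitin-conjugating enzyme of the endoplasmic reticulum (0.51). The 95th percentile over all genes was 0.26. Hilpda had a Spearman value of 0.23 and Gtpbp2 of 0.42. Most like Psat1 were Pdia4 (0.42), Spcs2 (0.41) and Ung (0.41), of which the first 2 act on proteins in the endoplasmic reticulum. Most like Asns were Hpx, the haem carrier hemopexin (0.39), Syt12 (0.38) and Tmem184c (0.36). The 95th percentiles were 0.16 for both.

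Other known ATF4 targets gave no call on average, which says little for lists of this size. Of 49 listed genes in 4 lists, 41 were tested by limma. None was called in either direction, against 0.496% of all genes, so 41 genes are too few to read the count. By limma 2 had an unadjusted p under 0.05 (4.88%, against 9.56% of all genes). Of the 41, 30 were positive and the median difference was 0.01. Among 9 genes of amino acid synthesis and one-carbon metabolism 6 were positive, led by the mitochondrial folate enzyme Mthfd1l (0.11 ± 0.03, limma adjusted p = 0.132) and the mitochondrial phosphoenolpyruvate carboxykinase Pck2 (0.13 ± 0.04, adjusted p = 0.175), with Shmt2 at -0.05 and Cbs at -0.06. Of 7 amino acid transporters 5 were positive, with Slc1a5 at 0.07 and Slc7a1 at 0.05. Of 10 tRNA synthetase genes 9 were positive, with a median of 0.03 and a highest value of 0.06 for Iars, and the tRNA exporter Xpot, on the same list, had 0.01. Of 14 stress response genes 9 were positive, with Atf3 at 0.10 and Ero1a at 0.12. Of 10 genes for the eIF2alpha kinases, eIF2B and phosphatase subunits 5 were positive. None was called by limma, again among too few genes to read the count. The kinase PERK (Eif2ak3), at 0.09, was the 1 gene with an unadjusted limma p under 0.05.

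In genes of the neighbouring branches of the unfolded protein response, as over all genes, calls depended on the scanning dates included. The lists used here were written with earlier results of these data known, so their calls and p-values are a description. Over all genes 0.326% were called higher, 0.17% were called lower and 50.3% were positive. Of 18 genes of the IRE1 and ATF6 branches, 3 were called higher and none lower, and 12 were positive with a median of 0.06. Derl3, which draws misfolded protein out of the endoplasmic reticulum, rose by 0.99 ± 0.13 (limma adjusted p = 8.4e-09) and was positive in 35 of 45 strains. The disulfide isomerases Pdia6 and Pdia4 each rose by 0.20 (adjusted p = 0.00357 and 0.0107 by limma). The chaperone BiP (Hspa5), on the same list, had a value of 0.02 and was not called. Of 8 genes that use serine or glycine in liver, all 8 were negative and 2 were called lower. Sardh, sarcosine dehydrogenase, fell by 0.15 (limma adjusted p = 0.00563) and Gldc, of the glycine cleavage system, fell by 0.16 (adjusted p = 0.0186 by limma). Stab2, an endothelial marker, fell by 0.19 (limma adjusted p = 0.00104) and was the 1 gene called of 9 endothelial markers. Cela2a, an elastase and the 1 gene called of 9 tested exocrine pancreas markers, rose by 0.23 (limma adjusted p = 0.0385). Alternatives for these 7 genes were chosen after seeing the data. None of the 7 was called by limma without scan 2, where Derl3 had 0.72 (adjusted p = 0.0889), nor in scan 1 alone, where Derl3 had 0.45 and Pdia4 -0.0012. Without scan 2 Sardh had -0.05. Calls over all genes went the same way, from 70 to 0 in scan 1 alone and almost to 0 without scan 2. Without the arrays off their strain, where 44 of all genes were called, Derl3, Pdia6, Sardh and Stab2 were called. Pdia4, Gldc and Cela2a were not. In the 26 strains free of such arrays, where 300 of all genes were called, all 7 were called.

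Within strains, limma called genes of the 4 ATF4 lists in 4 of the 45 strains, and these genes were picked out after their values were seen. In OR5119 it called 6 of the 41 higher and none lower, where 1.9% of all genes were called. They were Pck2 (2.04 ± 0.29, limma adjusted p = 1.8e-07), the tRNA synthetases Sars (0.90), Gars (0.74) and Nars (0.62), and the transporter genes Slc3a2 (0.96) and Slc7a1 (0.84). Without the array off its strain 4 of them were called, Slc3a2 and Slc7a1 no longer. Derl3, Sdf2l1, Pdia6 and Pdia4 were called higher there too, at 3.29, 2.25, 1.39 and 1.11, and Sardh and Gldc lower, at -1.009 and -1.003. Without animal 367 or without animal 368 the count of 6 went to 1 in each case, and the gene left was Pck2. Fitted on its own 8 arrays, OR5119 gave no call by limma in any gene, with 3 of the 41 at an unadjusted p under 0.05 and 3.72% of all genes. Among marker genes, Cd68 was called higher in OR5119 (2.08) and Stab2 (-1.23) and the hepatocyte gene Cyp2e1 (-0.19) lower. Of the 8 Kupffer cell and macrophage markers, Cd68 and Marco were positive and 6 were negative, with a median of -0.46. The part of these markers was not tested. In AU8049, where 5.4% of all genes were called, Atf3 (1.84) and the serine synthesis gene Psph (1.12) were called higher and Slc38a7 (-0.68) lower. In IL16750 (2.58% of all genes called) Slc6a9 was called higher (1.14) and Aldh18a1 lower (-0.98), and in AU8034 (0.276%) Cth was called lower (-0.94); IL16750 and AU8034 each held 2 arrays off their strain, and AU8049 held none. In OR3393 the stress response gene Atf3 had a difference of 1.52 (limma adjusted p = 0.0603).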

How the data were processed

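Each animal's liver RNA was hybridised to 1 array. Per the submitters' processing notes, the deposited log2 values were made with RMA (Affymetrix Expression Console); versions and joint normalization are not given in the sources used here. The deposited table held 42597 probe sets, of which 27691 had 1 gene symbol, 493 several and 14376 none, besides 37 control probe sets. Among a gene's probe sets with 1 symbol the brightest was used, and the gene was kept if above the array median on at least 4 arrays. Limma 3.58.1 in R 4.3.3 fitted strain by treatment means and scan (the scanning date, coded 1 to 6), with two-sided tests and Benjamini-Hochberg adjustment over all 14125 genes at 0.05. The averaged difference weights the 45 strains equally. Arrays have no read depth; their number limits the precision. Each array is a separate animal. The 10 genes, the lists and the tests were chosen with earlier results of these data known. Named were the 10 genes; for each, the strains with the highest and lowest difference and the 2 highest and 2 lowest Control means; strains where 3 or more genes differed by at least 1 the same way; list genes called on average or of largest moderated t (up to 4 a list); and the genes of most like residuals. Steps were tested on simulated data. Promoters are RefSeq's.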

Additional observations from a re-analysis of the deposited data

Results flagged for a closer look

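Psat1 in Control animal 34 of OR477 stood apart from the other 3 Control animals, at 4.86 against 3.83 to 3.98, with a gap of 0.854 of the group's range. Ddit3 in tolvaptan animal 477 of OR3393 stood apart in the same way, at 9.28 against 4.94 to 5.60, with a gap of 0.847 of the range. Of 55 groups of animals checked in this way 2 stood apart. The groups belonged to strains picked by their differences, so no chance rate applies to this count. In AU8016, which had only 2 tolvaptan animals, both had Sesn2 above every Control animal. In AU8005, which held an array off its strain, every tolvaptan animal had Sesn2 below every Control animal. Over all gene and strain pairs such non-overlap was found in 1.55% in the higher and 1.5% in the lower direction. Most of those pairs had 4 animals in each group, and with only 2 tolvaptan animals non-overlap comes more easily. The differences of these 2 strains were 1.30 apart, and this was not tested.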

How the results depend on the processing

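Psat1 kept a positive averaged difference in all 13 alternatives that could measure it, from 0.0067 in scan 1 alone to 0.41, and Asns in 13 of 14, from -0.06 in scan 1 alone to 0.40. Atf4 stayed positive in 14 of 14, Ddit3 negative in 14 of 14 and Slc7a11 negative in 13 of 13, while Trib3 kept its sign in 12 of 14 and Chac1 and Sesn2 in 13 of 14. The count of genes of the set called went from 1 to 0 when genes had to lie above the array median in at least 50% of arrays, where Psat1 was not kept, with strains as the unit, without the arrays off their strain, in scan 1 alone and without scan 2. The count over all genes, 70, became 18 with strains as the unit, 44 without the arrays off their strain, 300 in strains with no such array, 0 in scan 1 alone by limma (358 at an unadjusted p under 0.05), 158 in scans 2 to 6, 1 without scan 2 and 380 with array quality weights. Those weights called 2 list genes, Mthfd1l and Pck2, against 0. Calls within strains numbered 1785, and 1106 in strains with no array off its strain; the F test of equal differences called 26 genes without those arrays, against 3. The OR5119 difference of Psat1 ran from 2.79 to 4.60 and the count of ATF4 list genes called there from 1 to 8 as each animal was left out, and that count was 0 when OR5119 was fitted on its own arrays, an alternative chosen after seeing the data. No paired analysis was possible because each animal has a number of its own that links no Control with a tolvaptan animal; the comparison within strains in scan 1 is given above. The cause of these shifts was not tested. Psat1 was dim, so differences between low values have little meaning.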
